A study of Sus scrofa with 16 samples.

Results

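The transcripts of SOD1, PARK7 and BNIP3L were followed in pig conceptuses, the embryo with its extraembryonic membranes, while they lengthen in the uterus before attachment. Each gene was read by 1 probe (914 for SOD1, 749 for PARK7 and 609 for BNIP3L), so 3 of the 1015 probes of the array and 3 of its 637 named genes are described. The genes were selected on their function and with their values at the 4 stages already known. Their differences between stages are therefore given as a description, with standard errors and no test.

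SOD1 encodes the copper and zinc superoxide dismutase, which turns superoxide into hydrogen peroxide in the cytosol and the mitochondrial intermembrane space. PARK7 encodes DJ-1, a protein with a redox-sensitive cysteine that protects cells and their mitochondria under oxidative stress. BNIP3L, also called NIX, is a receptor on the outer mitochondrial membrane that binds the autophagy proteins of the LC3 and GABARAP families and so marks mitochondria for removal; its gene is a known target of the hypoxia-inducible factors.

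RNA of whole embryos was amplified, made into radioactive target and hybridised to membranes that carry cDNA products, 4 arrays for each of 4 stages. The stages follow shape and length: embryos of 1 to 5 mm were small spherical, those of 6 to 11 mm large spherical, those of 13 to 45 mm tubular, and those longer than 100 mm filamentous. The labels name no treatment, breed, day of gestation or genotype. They do not tell whether arrays within a stage stem from different animals, so every p-value measures only the spread between these samples, which may be technical. Median intensity per array lay between 62.8 and 71.4, on a linear scale of unstated normalization. The number of arrays limits the precision.

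Of 12 trophectoderm markers 4 were measured (KRT8, KRT18, KRT19 and PLAC1), and their summed intensity was 336 to 478 on small spherical, 375 to 484 on large spherical, 399 to 468 on tubular and 375 to 501 on filamentous arrays. The keratins of a simple epithelium were thus measured at every stage. PLAC1, a gene of the trophoblast, read 12.1 ± 4.20, 24.6 ± 3.26, 30.4 ± 6.14 and 33.7 ± 10.9 (SD, n = 4). It rose from small spherical to filamentous embryos (log2 difference 1.46 ± 0.28, adjusted p = 0.0159, limma), where 0.888% of all probes passed. The keratins did not pass there: KRT19 stood at 0.55 (adjusted p = 0.274), KRT8 at 0.28 (adjusted p = 0.723) and KRT18 at -0.11 (adjusted p = 0.872, limma). PLAC1 moved with SOD1 between small and large spherical embryos in its means, and its part there was not tested. The 1 measured marker of maternal blood, CD3E, read 0.330 to 4.34 on the 16 arrays, and the 2 of endometrium, ACP5 and PGR, summed to 9.59 to 34.8. The 1 measured gene of epiblast and mesoderm, T, read 1.35 to 28.4. The array numbered 1 of each stage differed from its fellows in many probes, and values on the other 12 arrays are given for the 3 genes.

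SOD1 was lowest in small spherical embryos and highest in large spherical ones. The 4 small spherical arrays read 103, 115, 129 and 65.0 in the order of their numbers. The large spherical arrays read 152, 215, 167 and 174, the tubular arrays 181, 154, 150 and 177, and the filamentous arrays 114, 142, 167 and 130. Every large spherical and every tubular array lay above every small spherical one, whereas filamentous arrays overlapped all other stages. The share of all probes whose arrays separated in this way is not given here. By size of the log2 difference, SOD1 ranked 72 of 1014 probes in large minus small spherical embryos. In tubular minus small spherical embryos it ranked 86. Between large and small spherical embryos, 95 of the 1014 probes had an unadjusted p below 0.05 (limma). By a stricter measure, an adjusted p below 0.05, 0.394% of all probes passed there. Neither figure is the share of probes that separate, so the separation of SOD1 is not shown to be rare. SOD1 was chosen with its stage means known, so no call is given for it. In whole embryos, a smaller share of cells that carry a transcript and less of it per cell cannot be told apart.

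The stage means of SOD1 were 103 ± 27.5, 177 ± 26.7, 166 ± 15.8 and 138 ± 22.5 (intensity, SD, n = 4) from small spherical to filamentous. Large spherical exceeded small spherical embryos by 0.82 ± 0.21 on the log2 scale (SE), which is 1.76-fold, or by 0.90 ± 0.25 on the 12 arrays numbered 2 to 4, and tubular exceeded small spherical ones by 0.72 ± 0.21. Filamentous embryos stood 0.46 ± 0.21 above small spherical and -0.36 ± 0.21 from large spherical ones, and the filamentous array was the higher in 14 of 16 pairings with small spherical arrays. These gaps are to be read against a spread between arrays of a stage of 0.28 (residual SD, log2).

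In the order of the means, small spherical, filamentous, tubular, large spherical, each stage overlapped the next. Tubular and large spherical embryos differed by -0.09 ± 0.21, and this small difference had the other sign with quantile normalization (0.03), with cyclic loess (0.01) or without large spherical replicate 2 (0.01). Filamentous and tubular embryos differed by -0.27 ± 0.21, and by -0.14 on the 12 arrays numbered 2 to 4. Small spherical replicate 4 was the dimmest array for SOD1. Without it the difference of large from small spherical embryos was 0.61, and that of filamentous from small spherical ones was 0.25.

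**Figure D1:**
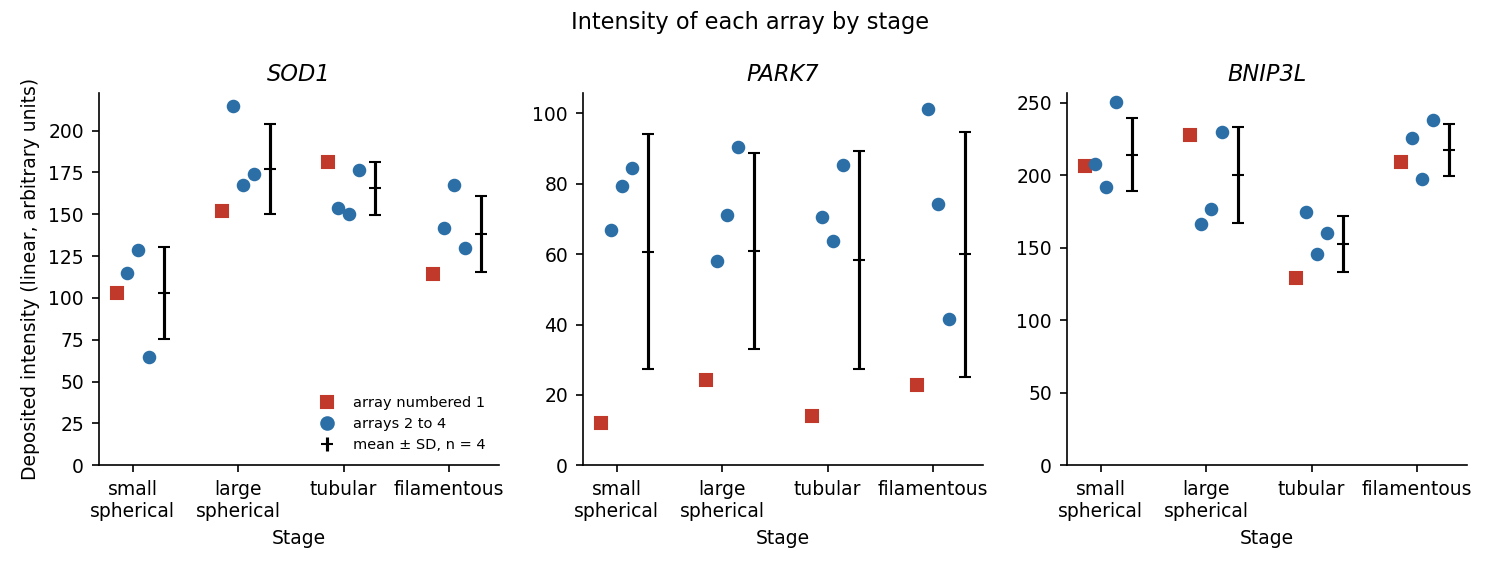
Deposited intensity (linear scale, vertical axis) of SOD1, PARK7 and BNIP3L on each of 16 arrays by stage (horizontal axis); squares are arrays numbered 1, circles arrays 2 to 4, and bars the mean ± SD of 4 arrays. SOD1 is lowest in small spherical embryos (mean 103), BNIP3L in tubular ones (mean 153), and PARK7 is at or below 24.3 on the 4 arrays numbered 1 and at or above 41.5 on the other 12.

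BNIP3L, the mitophagy receptor, was lowest in tubular embryos. Its small spherical arrays read 207, 208, 192 and 250, its large spherical arrays 228, 166, 177 and 230, its tubular arrays 129, 175, 146 and 160, and its filamentous arrays 209, 225, 198 and 238. All 4 tubular arrays lay below all small spherical and all filamentous ones. The share of all probes whose arrays separated in this way is not given here. By size of the log2 difference, BNIP3L ranked 93 of 1014 probes in filamentous minus tubular embryos. In tubular minus small spherical embryos it ranked 185. Between the tubular and filamentous stages, 34 of the 1014 probes had an unadjusted p below 0.05 (limma). By a stricter measure, an adjusted p below 0.05, 0% of all probes passed there. Neither figure is the share of probes that separate, so the separation of BNIP3L is not shown to be rare. With the large spherical stage the tubular arrays overlapped, and the tubular array was the higher in 1 of 16 pairings.

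The stage means were 214 ± 25.2, 200.1 ± 33.3, 153 ± 19.4 and 218 ± 17.8 (intensity, SD, n = 4). Tubular embryos differed from small spherical ones by -0.49 ± 0.16 on the log2 scale (SE) and from large spherical ones by -0.39 ± 0.16, or by -0.24 on the 12 arrays numbered 2 to 4. Filamentous exceeded tubular embryos by 0.52 ± 0.16, a 1.43-fold difference, with 0.44 to 0.59 when single arrays were left out and 0.46 ± 0.18 on the 12 arrays numbered 2 to 4. Filamentous and small spherical embryos, the outermost stages, differed by 0.03 ± 0.16, and large from small spherical ones by -0.11 ± 0.16, both within the spread between arrays of a stage, 0.18 (residual SD, log2). In the order tubular, large spherical, small spherical, filamentous, each stage therefore overlapped the next.

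BNIP3L was among the steadiest probes of the array. Its spread within stages was at percentile 5.42 of the 1014 probes tested, that of SOD1 at 27.7 and that of PARK7 at 95.7. With a term for the arrays numbered 1 in the fit, BNIP3L was at percentile 11.4, SOD1 at 37.3 and PARK7 at 68.1. BNIP3L was also bright, at percentile 73.5 to 96.8 of intensity on the arrays, and spread is not compared at equal brightness here. The summed level of hypoblast markers, of the layer that lines the yolk sac, was also higher in filamentous than in tubular embryos: the 5 measured of 10 (AFP, APOA1, FN1, RBP4 and TF) summed to 374 to 429 on tubular and to 436 to 592 on filamentous arrays, and to 303 to 424 on small and 338 to 443 on large spherical ones. Of the 5, 3 were positive in filamentous minus tubular embryos (APOA1 0.69, RBP4 0.48 and FN1 0.30 on the log2 scale) and 2 negative (TF -1.25 and AFP -0.36), and none passed (limma, adjusted p = 0.994 for each). Their part in the difference of BNIP3L was not tested.

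The probes numbered next to BNIP3L moved the same way in part. Of the 50 probes within 25 numbers of it, 38 were higher in filamentous than in tubular embryos, with a median log2 difference of 0.13, against 0.02 over all probes. With a smooth trend along probe number removed from each array, the difference of BNIP3L was 0.38. Around SOD1 the neighbours leaned the other way: 18 of 50 were higher in large than in small spherical embryos, with a median of -0.12. The place of each probe number on the membrane is not known here.

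**Figure D2:**
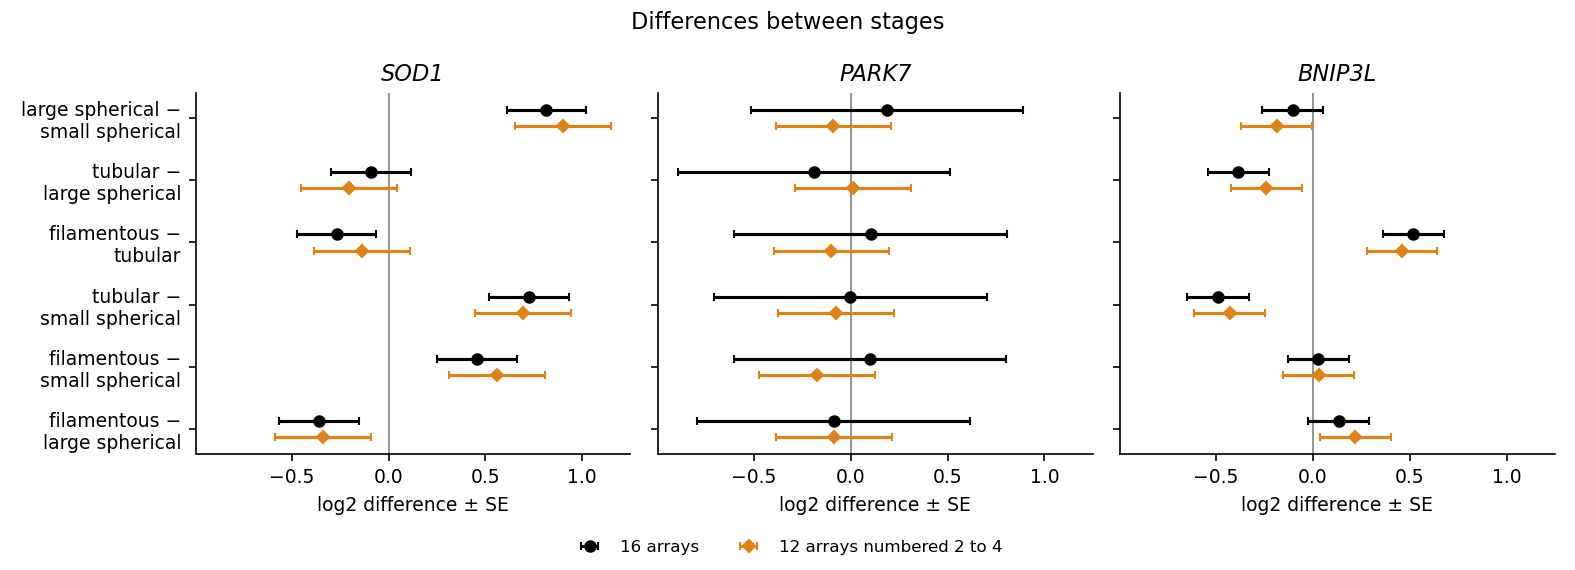
Log2 differences between stages (horizontal axis) with their standard errors for the 6 pairs of stages, from the fit over 16 arrays (circles) and over the 12 arrays numbered 2 to 4 (diamonds). SOD1 is 0.82 higher in large than in small spherical embryos, BNIP3L 0.52 higher in filamentous than in tubular ones, and every interval of PARK7 spans 0.

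PARK7 had stage means within 58.4 to 61.0 but varied widely between arrays. The arrays read 11.96, 67.0, 79.4 and 84.6 at the small spherical stage, in the order of their numbers. The next stages read 24.3, 58.0, 71.1 and 90.5 (large spherical), 13.9, 70.5, 63.9 and 85.3 (tubular), and 22.8, 101, 74.3 and 41.5 (filamentous). At each stage the array numbered 1 was the lowest of its 4. The stage means were 60.7 ± 33.3, 61.0 ± 27.9, 58.4 ± 31.0 and 59.9 ± 34.8 (intensity, SD, n = 4), and no difference between 2 stages exceeded 0.19 in size on the log2 scale, with an SE of 0.70.

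On the 12 arrays numbered 2 to 4 the means of PARK7 were 77.0 ± 9.06, 73.2 ± 16.3, 73.2 ± 11.0 and 72.3 ± 29.9 (SD, n = 3). The differences between stages were then -0.18 to 0.01, with an SE of 0.30. A difference of the size seen for BNIP3L, 0.52, would lie within 2 such standard errors.

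The array number was not used to choose the 3 genes, so a test on it does not reuse their stage pattern. The arrays numbered 1 were picked because they had been reported to stand apart. The p-values do not allow for that choice. A term for the arrays numbered 1, fitted beside the stages by limma over all 1014 probes, was -2.05 ± 0.23 for PARK7 on the log2 scale (SE; adjusted p = 8.22e-05, Benjamini-Hochberg). PARK7 averaged 18.2 on the 4 arrays numbered 1 and 73.9 on the other 12, a 4.15-fold difference, and was below all 3 other arrays of the stage in 4 of 4 stages. From small spherical to filamentous, the array numbered 1 read 15.5%, 33.2%, 19.0% and 31.5% of the mean of the other 3. The shift passed the threshold in all 24 alternatives, with an adjusted p of 1.08e-05 to 0.00139.

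SOD1 (-0.09 ± 0.17, adjusted p = 0.747) and BNIP3L (-0.04 ± 0.13, adjusted p = 0.857, limma) did not pass in the same test. Beside this 1 of 3 genes, 172 of the 1014 probes passed, which is 17.0%, 93 of them lower and 79 higher on the arrays numbered 1. A further 8 probes had a larger drop than PARK7, and 61 probes were below the 3 other arrays of the stage in all 4 stages. The median over all probes was 0.07. With the term in the fit, the residual SD of PARK7 was 0.42 in place of 1.10, at percentile 68.1 of all probes in place of 95.7. Around PARK7, 8 of 50 neighbouring probes were called lower and 0 higher, with a median of -0.04. Around BNIP3L, which did not pass, 12 of 50 were called lower and 2 higher, with a median of -0.13. Around SOD1, 2 were called lower and 2 higher. Removing the trend along probe numbers gave -1.84 for PARK7. Of the markers of other cell types 1 also passed: CD3E, the 1 measured of 10 for maternal blood and immune cells, was lower on the arrays numbered 1 (-1.05, adjusted p = 0.019, limma), while ACP5 (-0.44, adjusted p = 0.327) and PGR (-1.16, adjusted p = 0.202), the 2 measured of 6 for endometrium, did not pass, nor did any of the 4 for trophectoderm, the 5 for hypoblast or T. Their part in the difference of PARK7 was not tested, and what else these arrays share is not given in the labels.

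**Figure D3:**
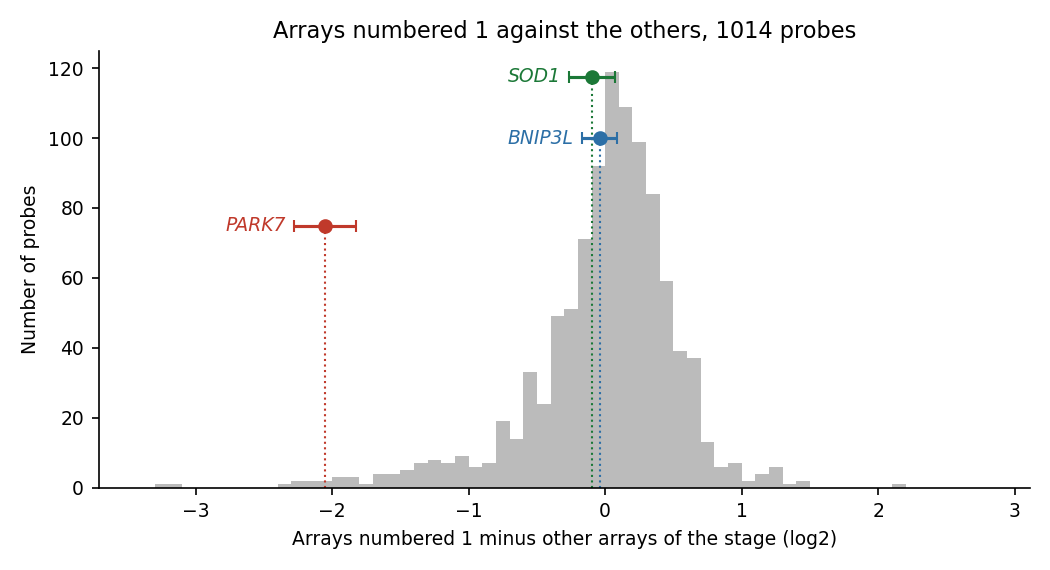
Histogram of the log2 difference between the arrays numbered 1 and the other arrays of their stage (horizontal axis) over 1014 probes (vertical axis, number of probes), with SOD1, PARK7 and BNIP3L marked at their value and SE; the height of the marks has no meaning. PARK7 lies at -2.05, far below the median of 0.07, while SOD1 and BNIP3L lie near 0.

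The other genes of these pathways were few on the array. In 8 lists, 40 genes other than the 3 were measured, and none passed the threshold over the 4 stages (limma F test, smallest adjusted p = 0.149), where 4 of 1014 probes did (0.394%). None passed between large and small spherical (0.394% of all probes), tubular and large spherical (0%), filamentous and tubular (0%) or filamentous and small spherical embryos (0.888%). At an unadjusted p below 0.05 the limma counts among the 40 were 3 in the F test and 1, 0, 4 and 6 in these 4 contrasts, against 105, 95, 33, 34 and 148 among all probes.

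Among enzymes that act on superoxide and peroxide, 3 of 19 were measured, all glutathione peroxidases. GPX1, the cytosolic form that removes the hydrogen peroxide SOD1 makes, read 85.5 ± 20.5, 65.5 ± 21.1, 62.1 ± 24.1 and 78.0 ± 18.04 from small spherical to filamentous embryos (SD, n = 4). Its mean was thus lower, not higher, in large than in small spherical embryos, at -0.42 on the log2 scale (adjusted p = 0.832, limma), where SOD1 stood at 0.82. GPX6 read 80.1 ± 29.1, 79.1 ± 23.8, 93.0 ± 39.0 and 141 ± 26.6 (adjusted p = 0.223 for filamentous minus small spherical, limma). GPX3, the secreted form, read 64.3 ± 18.4 in small spherical and 72.7 ± 32.6 in filamentous embryos.

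Of the thioredoxin, glutathione and NRF2 list 6 of 54 were measured. In large minus small spherical embryos 3 of the 6 were positive, with a median of 0.04, where 45.9% of all probes were positive with a median of -0.03. SELENOW, a small selenoprotein, read 37.9 ± 16.4 and 56.9 ± 17.6 in these 2 stages (adjusted p = 0.531, limma). SELENOF, GSTA1, a glutathione transferase, and GLRX, a glutaredoxin, had stage differences of at most 0.42 in size in the 4 contrasts, and none passed. Of 14 genes of metal storage and binding, FTL, the ferritin light chain, read 59.8 ± 18.9 in small spherical and 79.8 ± 16.8 in filamentous embryos, and TF, transferrin, 26.6 ± 6.31 and 11.5 ± 5.47.

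Of the mitophagy and autophagy list 5 of 41 were measured beside BNIP3L. GABARAPL2 and GABARAP belong to the family of autophagosome proteins that BNIP3L binds. GABARAPL2 read 42.5 ± 15.1, 54.6 ± 4.17, 86.1 ± 35.2 and 83.6 ± 7.81 over the stages, a log2 difference of 1.06 ± 0.28 between filamentous and small spherical embryos that did not pass (adjusted p = 0.097, limma), except without tubular replicate 1 (0.0498). GABARAP read 71.3 ± 12.4, 74.9 ± 13.8 and 96.8 ± 22.8 over the first 3 stages, and differed by 0.42 between filamentous and small spherical embryos (adjusted p = 0.349, limma). Both had their highest mean intensity in tubular embryos, where BNIP3L had its lowest. Filamentous minus tubular embryos stood at 0.03 for GABARAPL2 and -0.01 for GABARAP on the log2 scale. LAMP2, a lysosomal membrane protein, read 337 ± 152 in small spherical and 475 ± 110 in filamentous embryos, and OPTN, an autophagy receptor, 46.9 ± 5.34 and 59.7 ± 7.50.

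Of the respiratory chain and ATP synthase list 8 genes were measured, with a median log2 difference of 0.03 in filamentous minus tubular embryos, where the median of all probes was 0.02. In that list ATP5H read 161 ± 11.4 and 169 ± 17.3 in these 2 stages, and SDHD, a subunit of succinate dehydrogenase, 91.9 ± 16.1 and 82.7 ± 4.80. Of 25 genes of mitochondrial dynamics and the outer membrane 5 were measured, with a median of -0.04; VDAC1, the outer membrane channel, read 108 ± 22.2 and 122 ± 22.0. Of 29 genes of the BCL2 family and apoptosis 5 were measured, with a median of 0.02; TMBIM6, an inhibitor of apoptosis, read 75.3 ± 26.3 and 86.0 ± 4.59.

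Of the hypoxia response list 7 of 36 were measured, and 5 of the 7 were positive in filamentous minus tubular embryos, with a median of 0.16, where 54.1% of all probes were positive. EGLN1, the oxygen-sensing prolyl hydroxylase, read 12.9 ± 5.41 and 21.7 ± 5.32. ENO1 and GAPDH, of glycolysis, differed by 0.40 and 0.48, and TF, the iron carrier transferrin, by -1.25 (adjusted p = 0.994 for each, limma). The other negative gene of the 7 was VEGFA, the angiogenic growth factor (-0.53), named after its value was seen.

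On the arrays numbered 1, 8 of the 40 genes passed (20%, against 17.0% of all probes), 5 lower and 3 higher. GPX1 (-0.86, adjusted p = 0.00373), TOMM5, a small subunit of the mitochondrial import channel (-1.88, adjusted p = 0.00189), and ATP5O, a stalk subunit of ATP synthase (-1.05, adjusted p = 0.00238, limma), were lower there, as were GSTA1 (-0.50) and GLRX (-0.55). TIMM13, an import chaperone (1.19, adjusted p = 0.0104), TOMM20, an import receptor (0.54), and SELENOF (0.42) were higher.

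The genes whose arrays were most like those of each gene were found by Pearson's r of log2 intensity over the 16 arrays, among 634 other named genes. All points share their arrays, and the values are a description. HSD17B4, a peroxisomal enzyme of fatty acid oxidation, was the most like SOD1 (r = 0.95, and 0.91 after stage means were subtracted). It was followed by CALD1, an actin-binding caldesmon (0.92), CARHSP1, an RNA-binding cold shock protein (0.90), HSP90AB1, a chaperone (0.85), and HMGB1, a chromatin protein (0.85). Small spherical replicates 4 and 1 were the 2 arrays farthest from the median of SOD1; without them r was 0.87 for HSD17B4, 0.83 for CALD1, 0.78 for CARHSP1, 0.86 for HMGB1 and 0.49 for HSP90AB1. Of these probes, those of HSD17B4, CALD1 and HMGB1 are 13, 23 and 18 numbers from that of SOD1. The median r of SOD1 with all its 50 neighbours was -0.17. Whether the place of a probe has a part in these likenesses was not tested.

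The genes most like PARK7 were NPL, a lyase of sialic acid (0.95), STMN1, which destabilises microtubules (0.94), BTF3, a subunit of the complex on nascent polypeptides (0.92), ATP5O (0.91) and OAZ1, an inhibitor of ornithine decarboxylase (0.90). All 5 were lower on the arrays numbered 1, with log2 differences of -1.20 to -0.70 (adjusted p of 0.000408 to 0.0043, limma). On the 12 other arrays r was 0.70 for NPL, 0.75 for STMN1, 0.69 for BTF3, 0.64 for ATP5O and 0.36 for OAZ1. The likeness to PARK7 was thus lower without the arrays numbered 1 for each of the 5.

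GAPDH was the most like BNIP3L (r = 0.85, 0.66 after stage means were subtracted, and 0.89 on the 12 arrays numbered 2 to 4). GAPDH read 88.4 ± 7.46, 79.2 ± 5.69, 68.5 ± 3.37 and 96.1 ± 12.8 over the stages (SD, n = 4), with its lowest mean in tubular embryos, as BNIP3L had. Next came IL12B (0.74), whose intensities were dim, with stage means of 0.673 to 4.67, DDX39B, an RNA helicase (0.73), RPS21, a ribosomal protein (0.73), and DDX1, another helicase (0.70), whose probe is 8 numbers from that of BNIP3L. Without tubular replicates 1 and 3, the arrays farthest from the median of BNIP3L, r was 0.80 for GAPDH and 0.49 for IL12B.

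**Figure D4:**
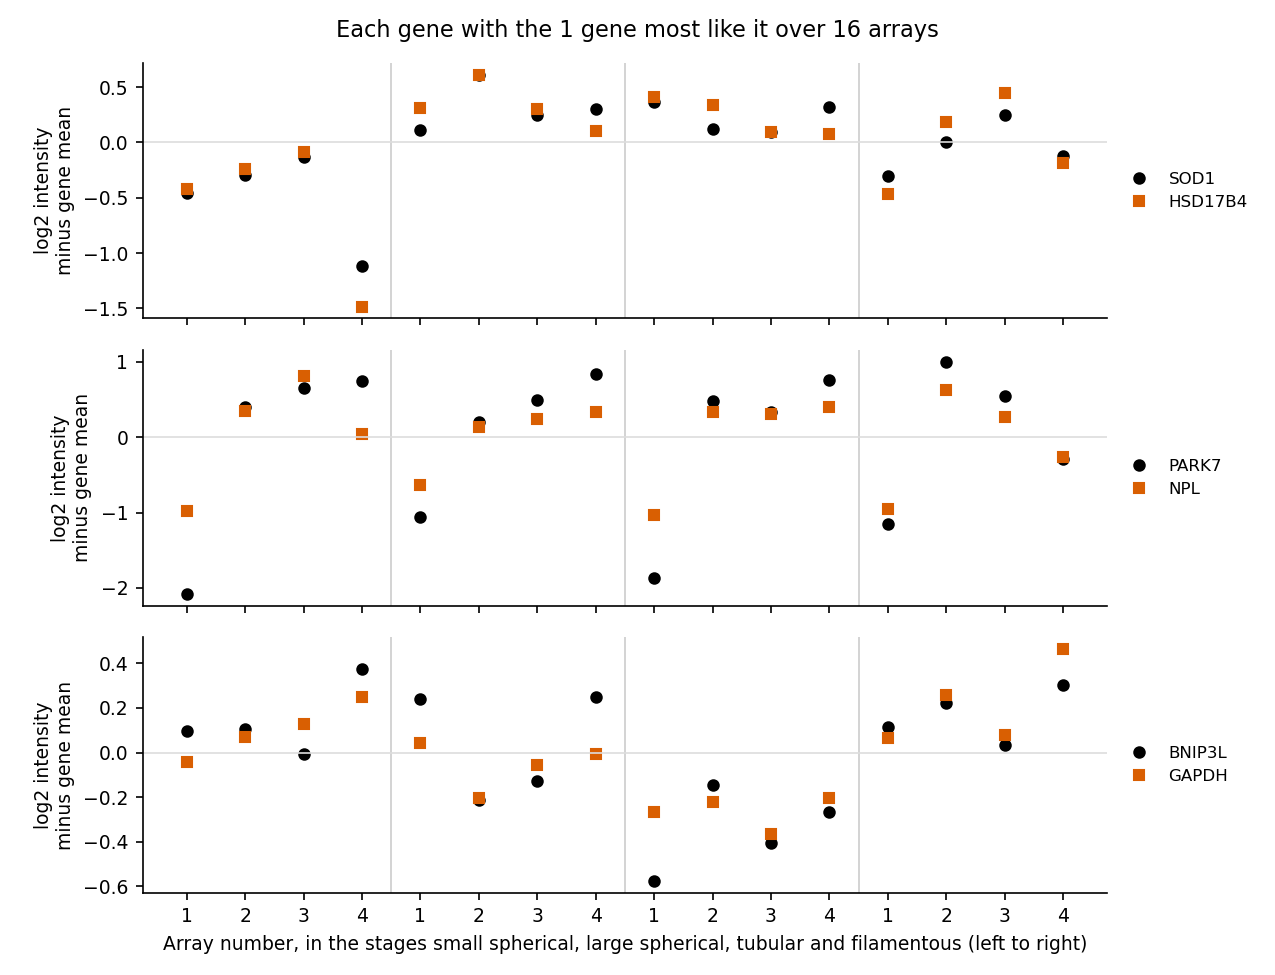
Log2 intensity minus the mean of the gene (vertical axis) on each of 16 arrays (horizontal axis, array number within the 4 stages, which grey lines separate) for SOD1 with HSD17B4, PARK7 with NPL and BNIP3L with GAPDH. The pairs follow each other across arrays (r of 0.95, 0.95 and 0.85), the first with a low point on small spherical replicate 4 and the second on the arrays numbered 1.

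Whether the 3 genes deviate together within a stage was tested over arrays. After stage means were subtracted, SOD1 and BNIP3L were negatively related over the 16 arrays (r = -0.64, permutation p = 0.0102, adjusted p = 0.0306 over 3 relations; rho = -0.57, permutation p = 0.0312, adjusted p = 0.0936; two-sided, arrays exchanged within stages). Without the 2 arrays farthest in SOD1, r was -0.52. The relation did not pass with median centring (r = -0.59, adjusted p = 0.101), quantile normalization (-0.53, adjusted p = 0.141), cyclic loess (-0.58, adjusted p = 0.05004), the 12 arrays numbered 2 to 4 (-0.68, adjusted p = 0.128) or the trend along probe number removed (-0.26, adjusted p = 0.526). PARK7 fell into separate clusters by array number, so its relations are given on the 12 arrays numbered 2 to 4 alone. There r was -0.03 with SOD1 (permutation test, adjusted p = 0.908) and 0.21 with BNIP3L (permutation test, adjusted p = 0.793). The median r over all pairs of probes, computed the same way, was 0.00.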

How the data were processed

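The authors deposited linear intensities, 1 for each probe on each array. Scanning, background correction and normalization by the authors are not given in the sources used here, and all 16 columns were used. Array medians spanned 0.185 on the log2 scale, so values were transformed to log2 as they were. Probe 357, the same on every array, was left out. Gene names came from the platform annotation (676 probes with 1 symbol, 15 with several, 324 with none); the probe with the highest mean stood for a gene.

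A mean per stage was fitted with limma 3.58.1 in R 4.3.3 over 1014 probes, with Benjamini-Hochberg adjustment, two-sided tests and a threshold of 0.05; the arrays numbered 1 were tested by 1 further term. Correlations used 100000 permutations. The fits were tested on simulated data. The 3 genes, the lists and the tests were chosen with earlier results of these data known. Named genes were, per list, those past the threshold or among the 4 with the largest F, and the 5 genes most like each of the 3. No sequences were used here.

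Arrays of the same number deviated together in large minus small spherical embryos (r of 0.219 to 0.495 for the 4 pairs, from the data and not the labels), and in each of the 5 other contrasts at least 1 pair stayed under 0.1. The values were recomputed with quantile or cyclic loess normalization, median centring, an offset of 16 before log2, a block for the replicate number, limma's array weights, a robust prior with variance trend, the mean over probes of a gene, leaving out the dimmest 25% of probes, only the 2 stages compared, the 12 arrays numbered 2 to 4, the 14 arrays other than small spherical replicate 3 and filamentous replicate 1, and each array left out in turn. A term for the arrays numbered 1 in the stage fit, removal of a trend along probe number (loess, span 0.1) and the look at 25 neighbouring probe numbers on either side were added after the data were seen.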

Additional observations from a re-analysis of the deposited data

Results flagged for a closer look

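In 124 groups of 4 arrays (31 named genes at 4 stages, log2 scale) an array was marked where its gap to the nearest other passed Dixon's 95% critical value; chance marks about 1 in 20 groups, here 6.2, and 7 were marked, 5 of them arrays numbered 1. PARK7 read 11.96 on small spherical replicate 1, where the other 3 arrays read 67.0 to 84.6. PARK7 read 13.9 on tubular replicate 1, against 63.9 to 85.3. TOMM5 read 17.3 on small spherical replicate 1 (others 71.5 to 89.9), TOMM22, an import receptor, 170.0 on the same array (others 144 to 148), and BAD, a promoter of apoptosis, 0.514 on large spherical replicate 1 (others 6.99 to 9.69). OPTN read 60.0 on tubular replicate 2 (others 44.4 to 46.2), and EGLN1 read 13.7 on filamentous replicate 4 (others 23.9 to 24.7).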

How the results depend on the processing

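Of 728 values recomputed for 29 results, 722 moved by less than the spread between arrays or stayed on the same side of the threshold. Many of them could not move. A stage difference keeps its value when an array of another stage is left out. The same holds for a replicate block, a term for the arrays numbered 1, or the mean over probes of a gene with 1 probe. The spread of PARK7 was 1.10 (residual SD, log2), and its tubular minus small spherical values of -0.67 to 0.59 all counted as kept. The count is thus no measure of robustness. The 6 values that were not kept are these. The negative relation of SOD1 and BNIP3L within stages lost its call with median centring (r = -0.59), quantile normalization (-0.53), cyclic loess (-0.58), the trend along probe number removed (-0.26) and the 12 arrays numbered 2 to 4 (-0.68), and was called with an offset before log2 (-0.64) and on the 14 arrays other than small spherical 3 and filamentous 1 (-0.68); the cause was not tested. The count of list genes past the threshold between filamentous and small spherical embryos was 0 to 1 when single arrays were left out, the 1 being GABARAPL2. For single arrays left out, SOD1 in large minus small spherical embryos ran from 0.61 to 0.94, BNIP3L in filamentous minus tubular ones from 0.44 to 0.59, and the drop of PARK7 on the arrays numbered 1 from -2.21 to -1.84. The drop was -1.39 with an offset before log2, which shrinks differences of dim values. A block for the replicate number cannot change the differences between stages (0.82 for SOD1, 0.52 for BNIP3L), since every stage holds the same array numbers. With this block no list gene was called, and the SE of PARK7 was 0.30. The differences of PARK7 between stages changed sign in 4 to 7 of 27 alternatives. No background feature was known, so dim values have no measured floor.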
